A study of Mus musculus with 4 samples.

Results

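The mitochondrial ribosomal protein genes were taken as the protein-coding genes whose GENCODE symbol starts with Mrpl or Mrps followed by a number. There were 78 of them among the 55401 genes in the files, of which 49 carry the Mrpl symbol of the large subunit and 29 the Mrps symbol of the small subunit. They lie on 17 chromosomes, and 5 pseudogenes with such symbols were left out. After the filter on low counts, 77 members were among the 13533 genes tested. Only Mrpl53 was removed.

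The libraries are bulk poly(A) RNA-seq of the semimembranosus, one of the hamstrings, taken from C57BL/6 mice aged 8 weeks. Every mouse had a stenosis of the left external iliac vein, made by ligation over a 30-gauge needle, so no library comes from an unoperated mouse. The IVS group (iliac vein stenosis, 2 libraries) was given saline by gavage every day, and the IVS_diosmin group (2 libraries) was given diosmin, a flavonoid given for venous disease, at 40 mg/kg per day. The labels do not say that replicates came from separate animals, so the p-values measure the spread between these samples only, which may be technical.

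Mitochondria carry their own ribosome, which translates the few messages of the mitochondrial genome, all of them for subunits of the oxidative phosphorylation complexes. Its ribosomal RNAs come from mitochondrial DNA, whereas all of its proteins are encoded in the nucleus, made in the cytosol and imported. Some of these proteins descend from the bacterial ribosome and others were added in mitochondria, and skeletal muscle, which depends on respiration, needs both kinds.

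The promoters were examined for sequence features that the choice by symbol did not use. RefSeq start sites (GRCm38.p6) gave a window from 250 bases before to 50 bases after the start for 69 of the 78 members, in 75 windows. These were searched on both strands for the letters bound by factors known for genes of the mitochondrion, GCGCANGCG for NRF1, CCGGAAGT for the ETS factor GABPA and AAGATGGC for YY1, none of which contains another. A match is a description of the letters and not a binding site. The NRF1 letters stood in 16 of 69 members (23.2%, 95% exact binomial interval 13.9% to 34.9%), against 15.6% of 9289 tested protein-coding genes. Over all 27025 genes with a window the share was 7.03%. The ETS letters stood in 12 members (17.4%, interval 9.32% to 28.4%), against 9.25% of the tested protein-coding genes and 4.31% of all genes with a window. The YY1 letters also stood in 12 members (17.4%, the same interval), against 5.35% of the tested protein-coding genes and 3.19% of all genes with a window. At least 1 of the motifs was found in 37 members (53.6%), against 27.1% of the tested protein-coding genes, 3 members held more than 1, and 32 held none. The share over tested protein-coding genes lies inside the members' interval for NRF1, just below it for ETS and below it for YY1, the genes are not independent, and no enrichment test was made. By subunit, the NRF1 letters were in 12 of 43 large and 4 of 26 small subunit members, the ETS letters in 8 and 4, and the YY1 letters in 6 and 6.

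For each motif the site is shown in the 3 holders with the highest level per length, 5′ to 3′ on the strand of the gene, so that the match can be seen in its setting. Capitals mark the match, which can lie on either strand. The NRF1 letters were found in these members.
Mrps21 (chr3:95871585-95871614, minus strand): gaaagtccagCGCCTGCGCtcagcaccgaa
Mrpl12 (chr11:120484547-120484576, plus strand): attgtctccgCGCCTGCGCgtcgcaccgcc
Mrpl14 (chr17:45686343-45686372, plus strand): aacccctggcGCGCAGGCGcagcgtgcggg
The ETS letters were found in these members, with Mrpl52 holding them on the opposite strand.
Mrpl18 (chr17:12916312-12916341, minus strand): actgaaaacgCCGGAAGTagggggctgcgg
Mrpl51 (chr6:125192099-125192128, plus strand): caggggctaaaCCGGAAGTatttgactgga
Mrpl52 (chr14:54426899-54426928, plus strand): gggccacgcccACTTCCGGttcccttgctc
The YY1 letters of these members lie just after the start site.
Mrpl42 (chr10:95501904-95501933, minus strand): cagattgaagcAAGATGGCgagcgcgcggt
Mrps7 (chr11:115604147-115604176, plus strand): tgacagcggccAAGATGGCtgcccccgcgc
Mrps24 (chr11:5707652-5707681, minus strand): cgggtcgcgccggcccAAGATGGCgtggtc
Members with the NRF1 letters had a median log2 fold change of 0.06 between the groups, and members with a window but without them -0.17. For the ETS letters the medians were -0.14 with and -0.13 without, and for the YY1 letters 0.06 with and -0.14 without. No test was made between these.

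Before the results, the libraries are described in brief. Gene counts summed to between 13056650 and 15324354 per library, and the tested members held 45 to 2064 counts each in a library. All 8 skeletal muscle markers examined were detected, with summed levels of 93356 to 102777 TMM-normalised CPM (counts scaled to a common library size with a correction for library composition). Single markers moved in both directions within that sum. In edgeR 1 passed, Des, which was higher at a log2 fold change of 0.88, and DESeq2 called 1 higher and 1 lower. At an unadjusted p under 0.05 in edgeR, 3 were higher, Des among them, and 1 was lower. Several other features moved with the groups. Slow fibre markers summed to 93.7 and 103 CPM in IVS and to 3958 and 1597 CPM in IVS_diosmin. All 11 had a log2 fold change above 0 and 10 passed in edgeR, beside 1.17% of all genes. Their median log2 fold change was 4.38 to 5.98 with 1 library left out. Endothelial markers summed to 534 and 569 CPM in IVS and to 307 and 276 CPM in IVS_diosmin. All 10 had a log2 fold change below 0 and 5 passed in edgeR, beside 1.78% of all genes. Their median was -1.02 to -0.80 with 1 library left out, where fewer of them passed. Of the markers tested for other cells (7 of smooth muscle and pericytes, 8 of macrophages, 8 of fibro-adipogenic progenitors and 3 of adipocytes), 0 passed in edgeR or DESeq2. At an unadjusted p under 0.05, 2 smooth muscle markers were higher and 1 adipocyte marker was lower. The share of gene counts from an annotated ribosomal RNA gene was 4.14% and 3.80% in IVS and 1.16% and 0.936% in IVS_diosmin. Mitochondrially encoded messages summed to 259968 and 381461 CPM in IVS and to 457642 and 387599 CPM in IVS_diosmin. Reads that aligned to more than 1 place took 37.7% and 38.8% of a file in IVS and 45.6% and 43.6% in IVS_diosmin. The part of these features in the results on the members was not tested.

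Per kilobase of merged exons, the levels of the members spanned 1.21 to 145 CPM per kilobase, the mean over the 4 libraries. The large subunit genes had a median of 8.30 and the small subunit genes a median of 6.06 on that scale. Mrps21, the counterpart of a small bacterial protein of the small subunit, was the highest, at 156 in IVS and 134 in IVS_diosmin. Mrps15 (32.4) and Mrps23 (29.5) followed in the small subunit, and Mrpl54 (56.2), Mrpl12 (40.5) and Mrpl41 (35.2) led the large subunit. Mrpl12 is the mitochondrial form of the stalk protein that recruits translation factors to the ribosome. At the other end stood Mrps35 (1.21), Mrps22 (1.24) and Mrps31 (1.52) in the small subunit, and Mrpl19 (1.53), Mrpl32 (2.53) and Mrpl17 (2.76) in the large. The order was similar in both groups, with a Spearman correlation of 0.959 over the 77 members, which are genes of the same libraries and not replicates.

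The choice of length moves this order. With the length of the principal transcript in place of all merged exons, Mrpl42 led the large subunit at 150 CPM per kilobase, ahead of Mrpl23 and Mrpl54, and Mrps21 remained first in the small subunit at 219. The order with merged exons and that with principal transcripts had a Spearman correlation of 0.834 over the 77 members. With principal transcripts and levels averaged over the 4 libraries, the subunit medians were close, at 11.5 CPM per kilobase for the large and 11.2 for the small subunit. Within single libraries they were not close on that scale, and the large subunit median lay above the small subunit median in each. The single-library medians averaged 13.6 (large) and 10.3 (small) in IVS, and 11.3 and 8.55 in IVS_diosmin. With merged exons they averaged 7.97 and 6.04 in IVS, and 8.45 and 5.62 in IVS_diosmin. The near equality thus held for the averaged levels only. The members had shorter merged exons than the genes at large, with a median of 2533 bases against 4183 over all tested genes, and a GC content near theirs, 50.4% against 50.2%.

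**Figure D1:**
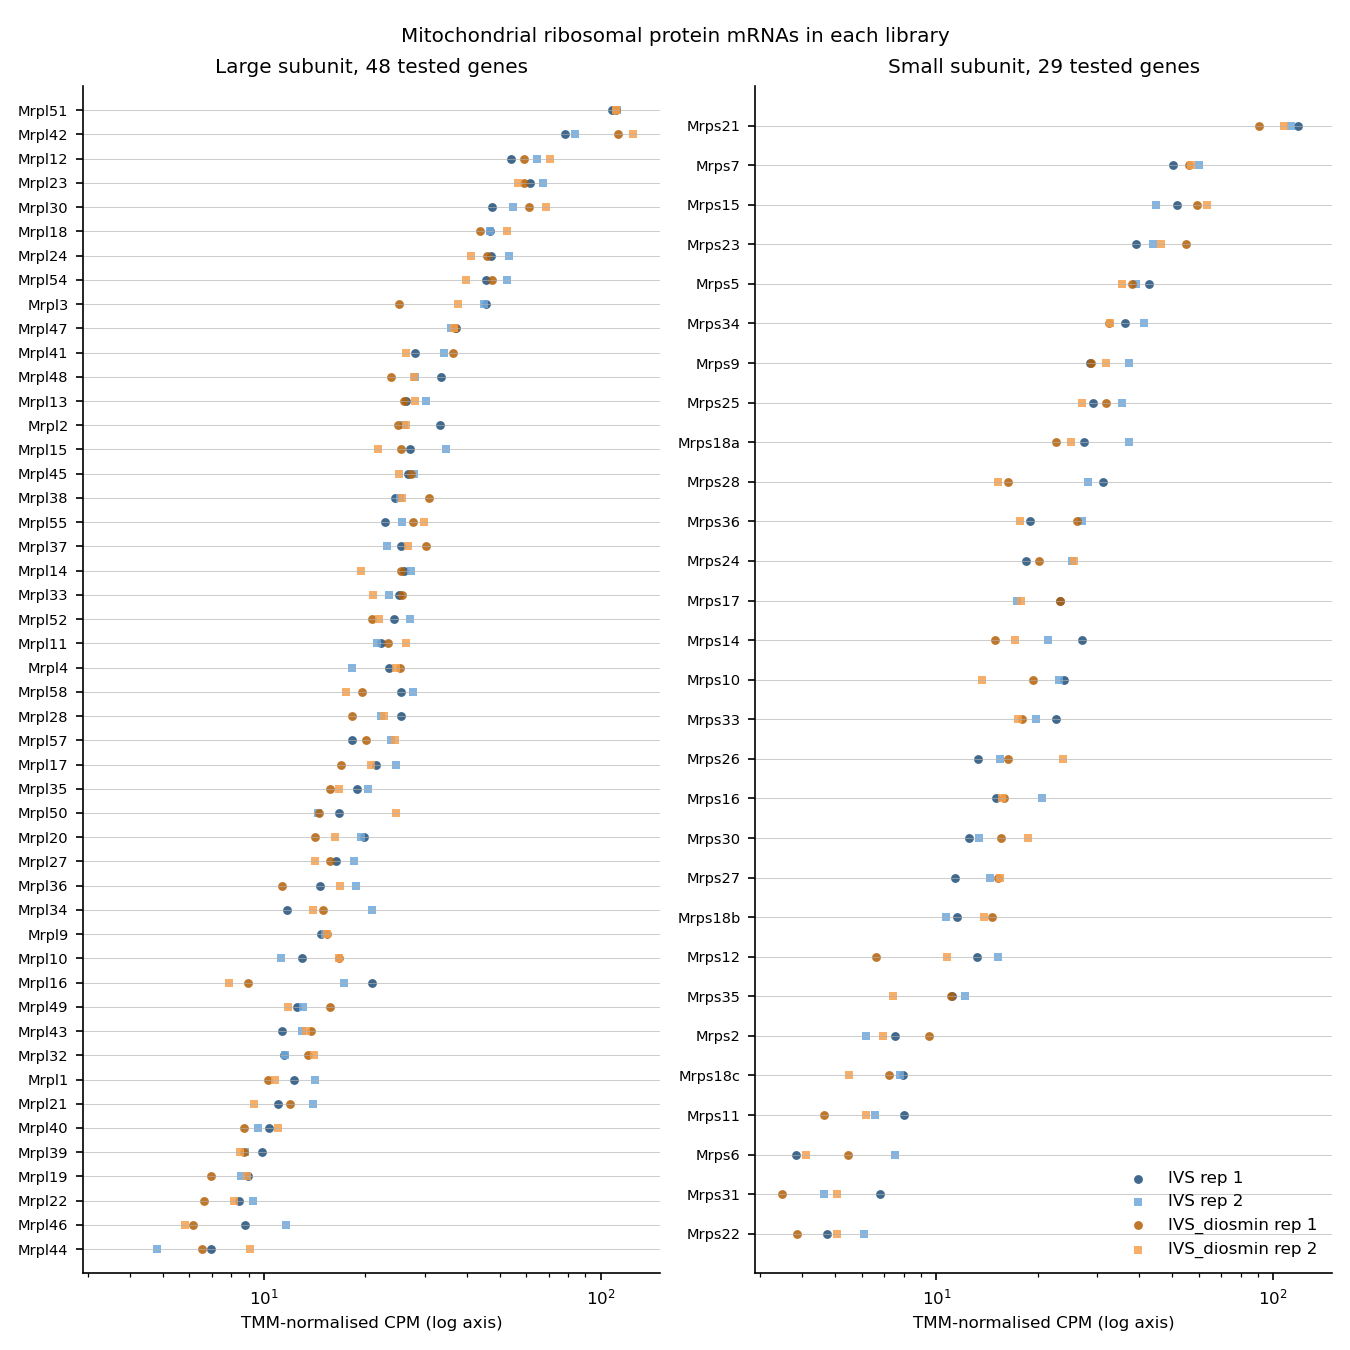
Level of each of the 77 tested mitochondrial ribosomal protein genes in each of the 4 libraries, as TMM-normalised CPM on a log axis that is not corrected for gene length, with the large subunit on the left and the small subunit on the right. The groups do not overlap in 29 members with diosmin lower (37.7%, beside 24.1% of all tested genes). The same holds for 17 members with diosmin higher (22.1%, beside 23.4%). Mrpl16 (20.9 and 17.2 against 8.94 and 7.84 CPM) and Mrps28 (31.2 and 28.1 against 16.3 and 15.2 CPM) are the members with an adjusted p under 0.05 in edgeR.

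Most mitochondrial ribosomal protein genes differed little between diosmin and saline, and 2 of the 77 tested fell. These were Mrpl16 of the large subunit and Mrps28 of the small subunit with log2 fold changes of -1.18 and -0.92. Across all genes 2.96% passed the same test (edgeR's quasi-likelihood test with Benjamini-Hochberg adjustment, adjusted p under 0.05), 241 lower (1.78%) and 159 higher (1.17%), and 2 of 77 members is near that share. No member rose in edgeR or DESeq2. At an unadjusted p under 0.05 in edgeR, 7 of 77 members were lower, beside 8.91% of all tested genes, and 1 was higher, beside 7.91%. The 7 are near the share over all genes. The log2 fold change was smaller than 0.5 in size for 68 of the 77 members, beside 8951 of all 13533 tested genes. Its 95% interval lay between -1 and 1 for 64 members, beside 5786 of all tested genes. The standard errors of the members were smaller, with a median of 0.227 against 0.321 over all tested genes. In a whole muscle, fewer cells of a type and less RNA per cell cannot be told apart.

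Mrpl16, the counterpart of a bacterial protein that lies near the tRNA sites of the large subunit, had 20.9 and 17.2 CPM in IVS and 8.94 and 7.84 CPM in IVS_diosmin. Both diosmin libraries lay well below both saline libraries. Its log2 fold change was -1.18 ± 0.25 (SE, 95% interval -1.73 to -0.64), with an adjusted p of 0.0282 in edgeR and 0.00853 in DESeq2. The gene lies on chr19:11770391-11774960 (mm10, plus strand), and its exons overlap those of no other annotated gene. The adjusted p was between 0.0704 and 0.184 when any 1 of the 4 libraries was left out, so the call rests on all of them, while the log2 fold change stayed between -1.31 and -1.04.

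The 250 bases before the RefSeq start of Mrpl16 (GRCm38.p6, chr19:11770165-11770414, plus strand) are shown because it had the largest fold change among the members. They hold none of the 3 motifs exactly, and capitals mark 3 stretches that match the ETS letters with 1 mismatch.
Mrpl16: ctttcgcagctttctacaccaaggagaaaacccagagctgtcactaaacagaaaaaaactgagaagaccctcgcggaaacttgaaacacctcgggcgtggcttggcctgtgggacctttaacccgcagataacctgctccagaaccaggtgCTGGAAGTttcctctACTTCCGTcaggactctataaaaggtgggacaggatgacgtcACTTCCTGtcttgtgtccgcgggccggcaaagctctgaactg

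Mrps28, a small subunit protein of a bacterial family, had 31.2 and 28.1 CPM in IVS and 16.3 and 15.2 CPM in IVS_diosmin. The groups did not overlap, and the replicates lay close to each other. Its log2 fold change was -0.92 ± 0.21 (SE, 95% interval -1.38 to -0.45), with an adjusted p of 0.0404 in edgeR and 0.0219 in DESeq2. It lies on chr3:8802146-8923918 (mm10, minus strand), also with no exon overlap. Without any 1 library the adjusted p was between 0.134 and 0.217. It was 0.0545 without robust estimation and 0.0563 with offsets for gene length and GC content.

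**Figure D2:**
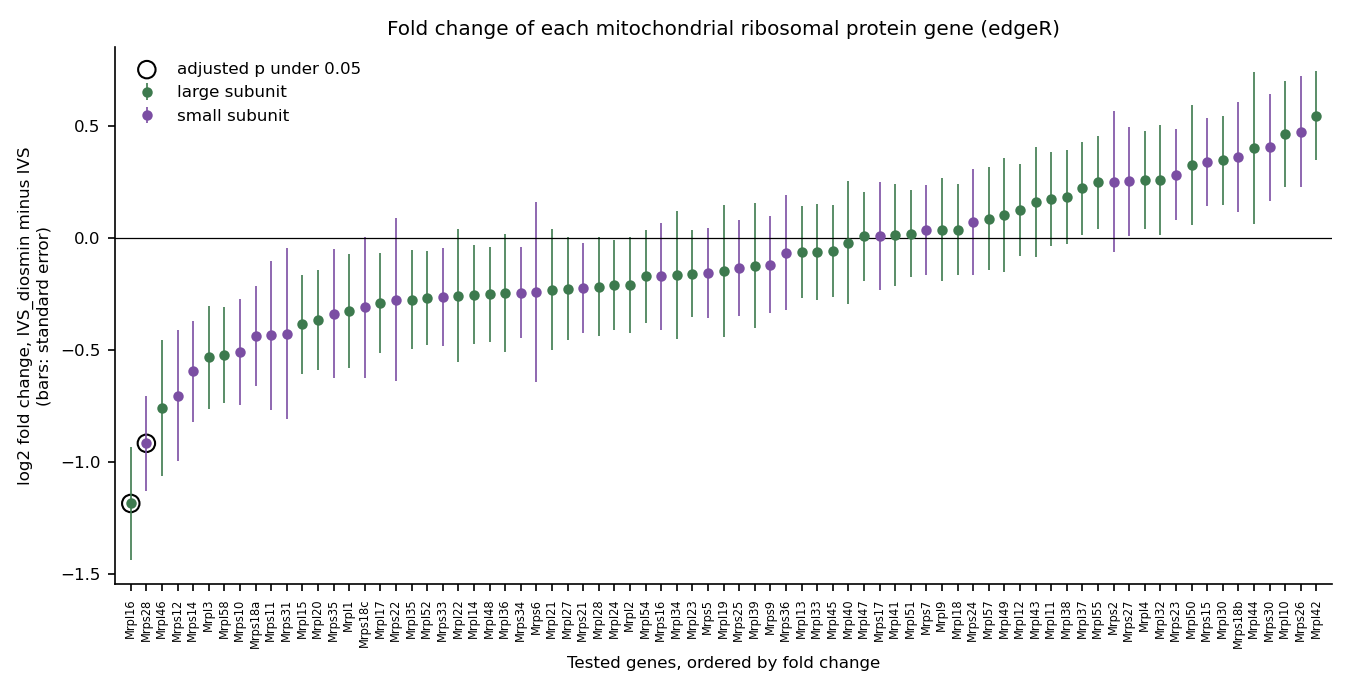
Log2 fold change (IVS_diosmin minus IVS) of each of the 77 tested members with its standard error, ordered by size, with large subunit genes in green and small subunit genes in purple. Mrpl16 (-1.18) and Mrps28 (-0.92), circled, were the 2 with an adjusted p under 0.05, and genes of both subunits are spread along the order.

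Among the large subunit members that did not pass the test, Mrpl42 had the smallest p. This protein, which has no bacterial counterpart, had 78.3 and 84.0 CPM in IVS and 112.6 and 124.9 CPM in IVS_diosmin. The diosmin libraries were both higher, and the log2 fold change was 0.55 ± 0.20 (adjusted p = 0.170 in edgeR). Mrpl10, the base of the stalk that carries Mrpl12, had 12.9 and 11.2 against 16.7 and 16.7 CPM, a log2 fold change of 0.47 (adjusted p = 0.351). Mrpl30, of a bacterial family, had 47.5 and 54.7 against 61.1 and 68.9 CPM, a log2 fold change of 0.35 (adjusted p = 0.422). In both, the groups did not overlap, with diosmin higher, as in 23.4% of all tested genes. Mrpl50, a protein specific to mitochondria, had 16.7 and 14.5 against 14.6 and 24.6 CPM, so its log2 fold change of 0.33 came from 1 diosmin library, and it was -0.11 without IVS_diosmin replicate 2.

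On the lower side of the large subunit, Mrpl46, Mrpl58 and Mrpl3 came next after Mrpl16. Mrpl46, specific to mitochondria, had 8.75 and 11.6 CPM in IVS and 6.17 and 5.83 CPM in IVS_diosmin, a log2 fold change of -0.76 ± 0.30 (adjusted p = 0.222 in edgeR). Mrpl58, which kept the fold of a release factor and can free stalled peptides from tRNA, had 25.5 and 27.6 against 19.5 and 17.5 CPM, a log2 fold change of -0.52 (adjusted p = 0.231). In Mrpl3, which reaches toward the catalytic centre, the saline libraries were at 45.7 and 45.1 CPM and the diosmin libraries at 25.2 and 37.6 CPM, a log2 fold change of -0.53 (adjusted p = 0.260). The diosmin libraries lay below the saline libraries in all 3 genes, as in 24.1% of all tested genes. Mrpl3 had a wide gap between the diosmin replicates. Its log2 fold change was -0.27 without IVS_diosmin replicate 1 and -0.86 without IVS_diosmin replicate 2. Mrpl46 starts head to head with the small subunit gene Mrps11, and the exons of the pair overlap by 173 bases on opposite strands, so that reads there cannot be assigned without strand. Mrps11 had 8.00 and 6.58 against 4.63 and 6.18 CPM, a log2 fold change of -0.43 (adjusted p = 0.574).

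In the small subunit, the members next to Mrps28 were Mrps14, Mrps12 and Mrps10, all of bacterial families. Mrps14, in the head of the subunit, had 27.0 and 21.5 CPM in IVS and 15.0 and 17.1 CPM in IVS_diosmin, a log2 fold change of -0.59 (adjusted p = 0.197 in edgeR). Mrps12, the counterpart of the bacterial protein at the decoding centre, had 13.2 and 15.2 against 6.63 and 10.8 CPM, a log2 fold change of -0.70 (adjusted p = 0.241). Mrps10, also of the head, had 23.8 and 23.1 against 19.4 and 13.7 CPM, a log2 fold change of -0.51 (adjusted p = 0.301). In these 3 genes every diosmin library was below every saline library, as in 24.1% of all tested genes, and none passed the adjustment over all genes. With 1 library left out the log2 fold change ran from -1.11 (without IVS_diosmin replicate 2) to -0.40 (without IVS_diosmin replicate 1) for Mrps12 and from -0.78 (without IVS_diosmin replicate 1) to -0.29 (without IVS_diosmin replicate 2) for Mrps10.

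On the higher side of the small subunit symbols stood Mrps26, Mrps15, Mrps30 and Mrps18b. Mrps26, specific to mitochondria, had 13.3 and 15.4 against 16.3 and 23.7 CPM, a log2 fold change of 0.48 (adjusted p = 0.368 in edgeR). Mrps15, of a bacterial family that binds the small subunit RNA, had 51.9 and 44.9 against 59.3 and 63.4 CPM, a log2 fold change of 0.34 (adjusted p = 0.430). Mrps30 had 12.5 and 13.4 against 15.5 and 18.7 CPM, a log2 fold change of 0.41 (adjusted p = 0.435). The groups did not overlap in any of the 3, with diosmin higher, as in 23.4% of all tested genes. The differences did not pass the test. Without IVS_diosmin replicate 2 the log2 fold change was 0.17 for Mrps26 and 0.25 for Mrps30. Despite its symbol, Mrps30 sits in the large subunit in structures of the mammalian mitochondrial ribosome.

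Mrps18a, Mrps18b and Mrps18c are 3 relatives of 1 bacterial small subunit protein. In structures, Mrps18a sits in the large subunit while the other two sit in the small subunit. Mrps18a had 27.3 and 37.2 CPM in IVS and 22.6 and 25.1 CPM in IVS_diosmin, a log2 fold change of -0.43 (adjusted p = 0.358 in edgeR). Mrps18b had 11.5 and 10.6 against 14.6 and 13.9 CPM, a log2 fold change of 0.36 (adjusted p = 0.506). Mrps18c was the lowest of the 3, at 7.95 and 7.80 against 7.25 and 5.48 CPM, with a log2 fold change of -0.31 (adjusted p = 0.694). The groups did not overlap for any of the 3, with Mrps18b higher and the others lower under diosmin. Of all tested genes, 24.1% were lower without overlap under diosmin and 23.4% were higher without overlap. The log2 fold change of Mrps18a was -0.20 without IVS replicate 2, and that of Mrps18c was -0.13 without IVS_diosmin replicate 2. The ratio of Mrps18a to Mrps18b was 2.38 and 3.50 in IVS and 1.54 and 1.81 in IVS_diosmin. Of the exonic bases of Mrps18b, 30.5% also lie opposite an antisense gene, and 23.2% of those of Mrps18c lie under another gene on the same strand, so the counts of both are uncertain.

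**Figure D3:**
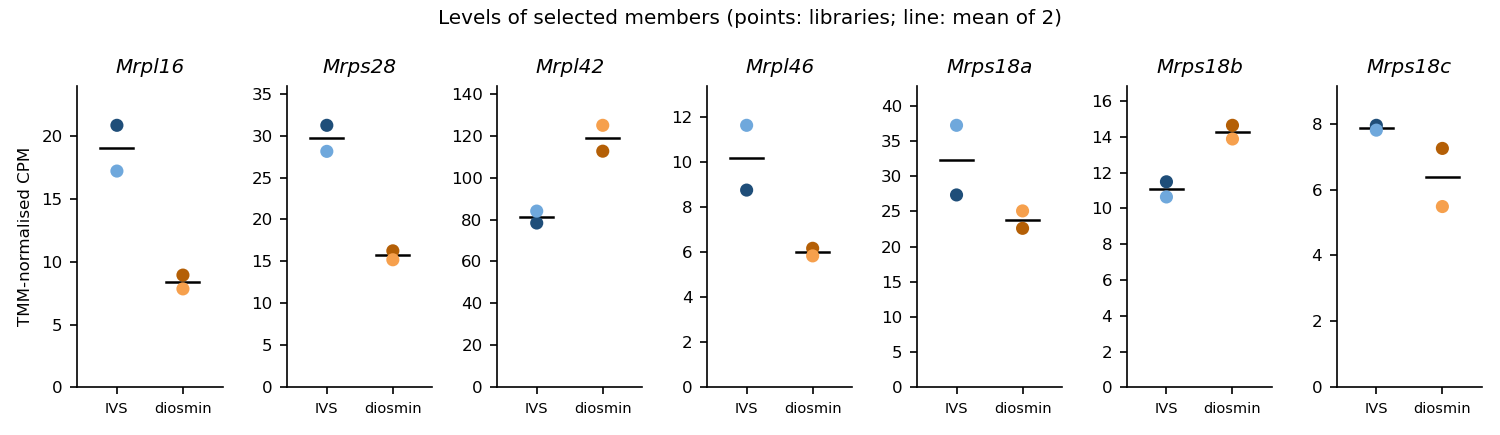
Level (TMM-normalised CPM, axis from 0, a separate scale for each gene) of 7 members in each library, with IVS in blue and IVS_diosmin in orange, points for libraries and a line for the mean of 2. Mrpl16, Mrps28 and Mrpl46 were lower in both diosmin libraries, Mrpl42 higher, and Mrps18b moved opposite to Mrps18a and Mrps18c, of which Mrpl16 and Mrps28 alone passed the test.

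The remaining members chosen by their level did not pass the test. Mrpl51, a protein specific to mitochondria that was singled out here after its values were seen, had 107.6 and 111.3 CPM in IVS and 111.0 and 111.1 CPM in IVS_diosmin, a log2 fold change of 0.02 ± 0.19. Its 4 libraries differed by less than the standard error. Mrps21 had 118.0 and 112.5 against 90.4 and 107.4 CPM, a log2 fold change of -0.22 (adjusted p = 0.652 in edgeR). Both diosmin libraries of Mrps21 lay below both saline libraries, as in 24.1% of all tested genes. Those of Mrps23 lay above, as in 23.4% of all tested genes. Of the other members with high levels per length, the log2 fold change was -0.17 for Mrpl54, 0.13 for Mrpl12, 0.01 for Mrpl41 and 0.28 for Mrps23. Among those with low levels it was -0.15 for Mrpl19, 0.26 for Mrpl32, -0.29 for Mrpl17, -0.34 for Mrps35, -0.27 for Mrps22 and -0.43 for Mrps31, and none of these 10 passed. Mrps36, which also belongs to the 2-oxoglutarate dehydrogenase complex and has no place in ribosome structures, had 18.9 and 27.0 against 26.1 and 17.7 CPM, so its groups overlapped, with a log2 fold change of -0.06.

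By subunit, the median log2 fold change was -0.09 over 48 large subunit members and -0.17 over 29 small subunit members, beside 0.01 over all 13533 tested genes. The fold change was below 0 for 28 of 48 large (58.3%) and 19 of 29 small subunit members (65.5%), beside 49.5% of all genes. In 29 of the 77 members (37.7%) both diosmin libraries were below both saline libraries, beside 24.1% of all tested genes. Both were above in 17 members (22.1%), beside 23.4% of all genes. Of the members with lower diosmin libraries 17 were large and 12 small subunit genes, and of those with higher ones 11 and 6. These shares describe the lists, whose genes share libraries, and no test was made between the subunits. With Mrps18a and Mrps30 counted in the large subunit and Mrps36 in neither, the medians were -0.09 over 50 and -0.19 over 26 members.

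Split by origin, the 48 members of bacterial families had a median log2 fold change of -0.19 with 32 of them below 0, and the 29 members specific to mitochondria a median of -0.02 with 15 below 0. The former stayed between -0.25 and -0.11 with 1 library left out, while the latter lay between -0.12 and 0.05 and was 0.03 with length and GC offsets, so it has no stable direction. In the large subunit the medians were -0.19 over 30 bacterial and 0.02 over 18 specific members. In the small subunit they were -0.19 over 18 and -0.13 over 11. Both genes that fell belong to bacterial families, as do 48 of the 77 tested members. No test was made between the origins.

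Summed over the members of a subunit, the large subunit had 1290 and 1362 CPM in IVS and 1287 and 1330 CPM in IVS_diosmin, with means of 1326 ± 51.0 and 1308 ± 30.5 (SD, n = 2). The groups overlapped. The small subunit had 716 and 755 CPM in IVS and 682 and 690 CPM in IVS_diosmin, with means of 735 ± 27.5 and 686 ± 5.44 (SD, n = 2), and its groups did not overlap. The ratio of large to small, of sums over 48 and 29 genes, was 1.80 and 1.80 in IVS and 1.89 and 1.93 in IVS_diosmin. The ratio was thus higher in both diosmin libraries. The largest differences in mean CPM were those of Mrpl42 (37.6 higher under diosmin), Mrps21 (16.4 lower) and Mrpl3 (14.0 lower). Without these 3 members, left out after their values were seen, the ratio was 1.95 and 1.92 in IVS and 1.94 and 2.00 in IVS_diosmin, and the groups overlapped. Leaving out the genes that differ most can narrow a difference by construction, so these values are a description. All members together took 0.229% and 0.199% of the gene counts in IVS and 0.184% and 0.200% in IVS_diosmin.

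**Figure D4:**
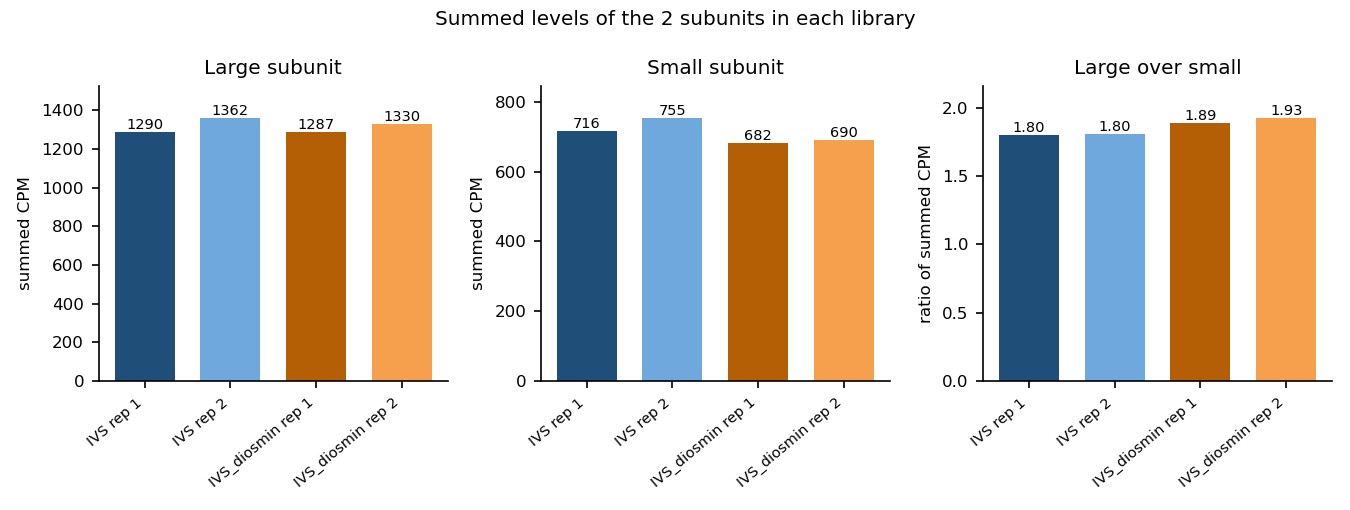
Summed TMM-normalised CPM of the 48 large subunit members (left) and 29 small subunit members (middle) and the ratio of the sums (right), 1 bar per library, all axes from 0. The large subunit sums of the groups overlap, the small subunit sums do not (716 and 755 against 682 and 690), and the ratio is 1.80 in both IVS libraries and 1.89 and 1.93 in the IVS_diosmin libraries.

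Many members sit close to other genes, which bears on how their reads could be counted. A protein-coding gene on the opposite strand starts within 1000 bases of the start of 33 of the 78 members (42.3%), against 16.3% of the tested protein-coding genes. The exons of 33 members overlap exons of another gene, 28 of them on the opposite strand and 8 on the same strand. In Mrps25, 69.8% of the exonic bases also belong to Nr2c2 on the other strand, and in Mrps34 63.4% belong to Mapk8ip3 on the other strand and 37.0% to Nme3 on the same strand. Mrpl53 had 0 counts in all 4 libraries, and 695 of its 790 exonic bases (88.0%) also belong to Gm42688 on the same strand, which had 10 and 4 counts in IVS and 12 and 10 counts in IVS_diosmin. Reads of this overlap cannot be assigned to 1 gene. The 45 tested members without such overlap had a median log2 fold change of -0.16 and the 32 with overlap one of -0.06. Of the members whose values are given above, Mrpl3, Mrpl10, Mrpl12, Mrpl19, Mrpl46, Mrpl51, Mrpl58, Mrps11, Mrps18b, Mrps18c, Mrps26 and Mrps30 have an exon overlap. It covers 0.0600% of the exonic bases of Mrpl58 and 0.184% of those of Mrps26, and in Mrpl51 it is with a microRNA gene of 0 counts. It is larger in the others, up to 36.0% in Mrpl19, and reads in these overlaps are of uncertain origin.

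Other genes of mitochondrial translation were examined as lists. The 5 mitochondrial ribosomal proteins without an Mrp symbol (Dap3, Ptcd3, Chchd1, Aurkaip1 and Gadd45gip1) had a median log2 fold change of -0.21. None passed in edgeR or DESeq2, and none had an unadjusted p under 0.05. Aurkaip1, a small subunit protein, had the smallest p of them, at 42.4 and 50.6 against 36.5 and 34.0 CPM and a log2 fold change of -0.40 (adjusted p = 0.361 in edgeR). Of 15 tested translation factors, with a median of 0.15 (0.04 to 0.30 with 1 library left out), 0 passed in edgeR or DESeq2, and at an unadjusted p under 0.05 1 was lower and 3 were higher. Oxa1l, which inserts new proteins into the inner membrane, had the smallest p, at 22.4 and 18.2 against 35.6 and 31.8 CPM and a log2 fold change of 0.73 (adjusted p = 0.0956).

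Of 29 assembly and ribosomal RNA modification factors, with a median log2 fold change of 0.04, 0 passed in edgeR or DESeq2, and at an unadjusted p under 0.05 1 was lower and 1 higher. Ddx28, an RNA helicase of large subunit assembly, had 4.34 and 7.72 against 2.70 and 2.22 CPM, a log2 fold change of -1.28 (adjusted p = 0.134 in edgeR). Of 16 genes of mitochondrial transcription and its regulators, among them Nrf1, Gabpa and Yy1, 0 passed in edgeR or DESeq2 and 1 was higher at an unadjusted p under 0.05. That gene was Tfb2m, a mitochondrial transcription factor, at 17.3 and 17.8 against 24.7 and 34.4 CPM and a log2 fold change of 0.75 (adjusted p = 0.109).

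Of 22 mitochondrial aminoacyl-tRNA synthetases and related enzymes, with a median log2 fold change of 0.06, 1 passed. Lars2, the leucyl-tRNA synthetase of mitochondria, had 2006 and 1866 CPM in IVS and 584 and 522 CPM in IVS_diosmin. Its log2 fold change was -1.81 ± 0.21, and its adjusted p in edgeR was 0.00148, rising to 0.0774 without IVS_diosmin replicate 1. It was lower in the same 2 libraries in which the ribosomal RNA gene was lower (4.14% and 3.80% of gene counts against 1.16% and 0.936%), whose part in the result was not tested.

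Of the 13 mitochondrially encoded messages, which mitochondrial ribosomes translate, 12 had a log2 fold change above 0, with a median of 0.39. The size of this median depended on single libraries, at 0.12 without IVS_diosmin replicate 1, 0.24 without IVS replicate 1, 0.54 without IVS replicate 2 and 0.55 without IVS_diosmin replicate 2. None passed in edgeR or DESeq2, and 2 were higher at an unadjusted p under 0.05. The gene of smallest p was mt-Nd2, a complex I subunit, with 17901 and 23171 against 32027 and 26729 CPM and a log2 fold change of 0.52 (adjusted p = 0.259 in edgeR). The ribosomal RNAs of the mitochondrion, which make the core of the same ribosome, had log2 fold changes of 0.17 (mt-Rnr1) and 0.10 (mt-Rnr2), neither with an unadjusted p under 0.05 nor called in DESeq2. Their median was -0.18 without IVS replicate 1 and 0.53 without IVS replicate 2, so they have no stable direction. The RNA was purified with poly-T beads, so these values are of captured RNA and not of total ribosomal RNA.

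Nuclear genes of oxidative phosphorylation, whose products assemble with the mitochondrially made subunits, had a median log2 fold change of -0.37. Of the 40 tested, 34 were below 0 and 3 passed in edgeR, all lower, beside 1.78% of all genes. DESeq2 called 7 lower, edgeR without the filter on low counts 6 and edgeR without robust estimation 1. Ndufa4 had 357.3 and 374.9 against 188.5 and 198.3 CPM, a log2 fold change of -0.92 (adjusted p = 0.0293 in edgeR). Ndufb3, of complex I, had 77.1 and 61.1 against 38.5 and 33.8 CPM, a log2 fold change of -0.93 (adjusted p = 0.0359). Cox5a, of cytochrome c oxidase, had 192.4 and 205.5 against 104.0 and 120.0 CPM, a log2 fold change of -0.83 (adjusted p = 0.0475). None of the 3 passed with any 1 library left out, while the median of the list stayed between -0.43 and -0.35. The members had a median of -0.15 beside this list's -0.37, and the difference of the lists was not tested.

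Proteins of the cytosolic ribosome, the other ribosome of the cell, had a median log2 fold change of 0.18 over 82 tested genes, of which 16 were below 0. The median stayed above 0 with 1 library left out, between 0.07 and 0.29. In this list Rps27a alone passed, with 59.1 and 107.5 CPM in IVS and 35.0 and 40.3 CPM in IVS_diosmin and a log2 fold change of -1.14 (adjusted p = 0.0476 in edgeR). Its adjusted p was 0.0176 without IVS replicate 1 and between 0.215 and 0.348 without any other library. No gene of the list passed with RLE scaling, without robust estimation or with length and GC offsets. The medians of the 2 ribosomes' proteins thus lay on opposite sides of 0, at -0.15 in mitochondria and 0.18 in the cytosol, and no test was made between the lists.

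**Figure D5:**
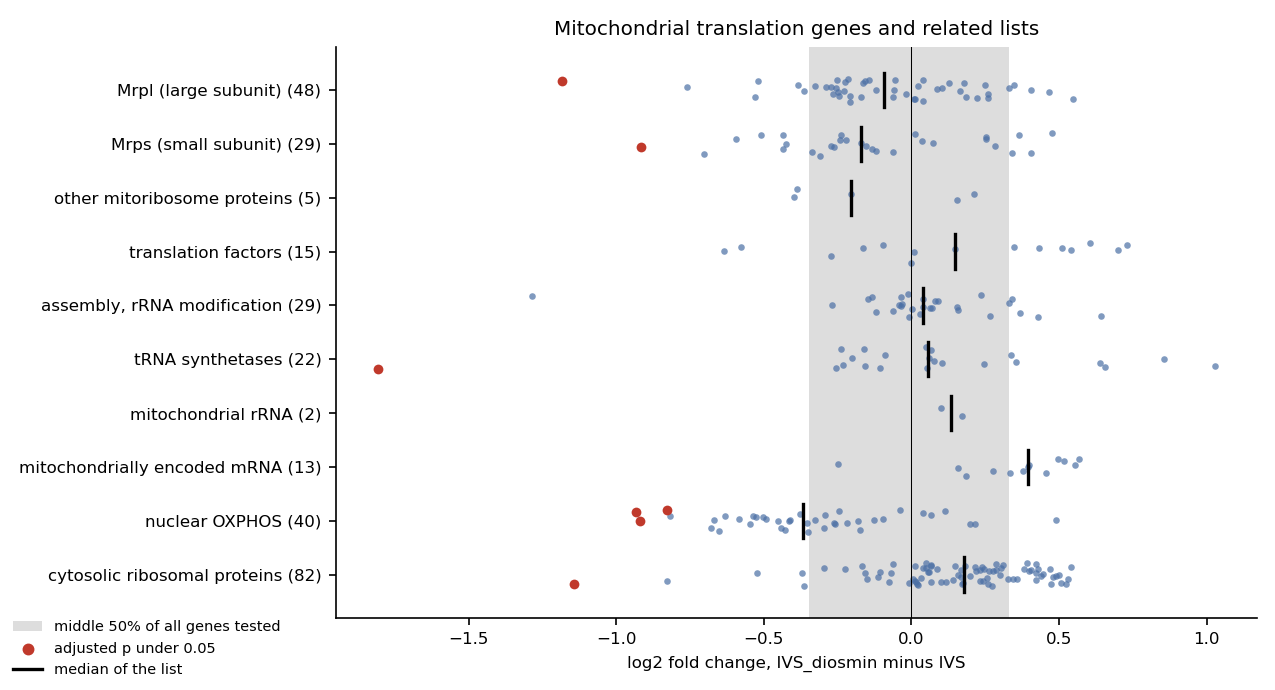
Log2 fold change (IVS_diosmin minus IVS) of the genes of both mitochondrial subunits and 8 related lists, 1 point per tested gene, with the number of genes in brackets, a black line at each list's median and grey for the middle 50% of all tested genes. The subunit medians (-0.09 and -0.17) lie inside the grey band, that of nuclear oxidative phosphorylation (-0.37) lies just below it and that of mitochondrially encoded messages (0.39) just above it, and the red points are the genes with an adjusted p under 0.05.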

How the data were processed

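The data were gene counts from 4 bulk RNA libraries of mouse semimembranosus muscle, grouped by the treatment in the labels. The authors deposited raw gene-level read counts, each library in its own file. HISAT2 2.1.0, HTSeq and build mm10 are listed per the submitters' processing notes. Which HTSeq version, annotation release, strand setting and filters applied is not given in the sources used here. RNA was purified with poly-T beads and a NEBNext Ultra kit, per the labels' protocols. HTSeq's 5 summary lines were excluded from every total and test. Genes took 27.5% and 27.7% of the reads in the IVS files and 24.9% and 26.3% in the IVS_diosmin files. Reads that aligned to more than 1 place took 37.7% and 38.8% against 45.6% and 43.6%. Reads in no feature took 29.7% and 28.6% against 25.8% and 26.8%. Reads that did not align took 2.75% and 2.89% against 1.50% and 1.42%. The part of these differences in the results was not tested.

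GENCODE M21 (mm10) gave symbols, positions, exon lengths and GC content and matched 55141 of 55401 identifiers. Counts were filtered with filterByExpr, scaled by TMM and tested with edgeR 4.0.16 (quasi-likelihood, robust, 2-sided, Benjamini-Hochberg adjustment over all 13533 tested genes, threshold 0.05) in R 4.3.3. The biological coefficient of variation was 0.235. Standard errors were derived from the fold change and its F statistic. The procedure was also run on counts simulated from its own fit, where its model holds by construction. That run does not bear on the calls made here. Between replicates, chi-square over its degrees of freedom was 30.8 (IVS) and 21.1 (IVS_diosmin), above sampling noise. The smallest p that an exact permutation test of a single value could give here is 0.333.

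The members and all lists were chosen with earlier results of these data known. Named members were those that passed, per subunit the 4 of smallest p in each direction, the 3 highest and 3 lowest per length, the removed member, the Mrps18 family and those whose place in structures differs from the symbol, and in other lists the genes that passed or the gene of smallest p. Alternatives were RLE and upper-quartile scaling, library sizes from nuclear protein-coding genes, no filter, DESeq2 1.42.0, no robust estimation, each library left out, a replicate block, length and GC offsets, subunits by structure, no overlapping members, and motifs with 1 mismatch. Leaving 3 members out of the ratio, principal transcript lengths and the settings for other lists were added after seeing the data.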

Additional observations from a re-analysis of the deposited data

How the results depend on the processing

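Of 30 named members, 28 passed the threshold in none of the 13 settings each was run under, and 5 changed direction in some setting. With 1 library left out, the log2 fold change of these 5 ran from -0.020 (without IVS_diosmin replicate 2) to 0.264 for Mrpl12, -0.351 to 0.021 (without IVS_diosmin replicate 1) for Mrpl19, -0.238 (without IVS_diosmin replicate 1) to 0.215 for Mrpl41, which was also below 0, at -0.126, without IVS replicate 1, and -0.114 (without IVS_diosmin replicate 2) to 0.655 for Mrpl50. For Mrps36 it ran from -0.371 to 0.210 (without IVS replicate 2), and was 0.178 without IVS_diosmin replicate 2. None of these 5 was called. The cause was not tested.

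The count of members called lower was 1 without robust estimation, 1 with length and GC offsets and 0 to 0 with any 1 library left out, where the fit has fewer samples. Over all genes, DESeq2 called 266 higher, and without the filter 394 were higher and 525 lower. With 1 library left out, 21 to 106 genes were called higher and 6 to 165 lower, the lowest both without IVS_diosmin replicate 1. The lone sample of a group is then assumed to vary like the others.

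The large subunit median was -0.048 with length and GC offsets, -0.122 without overlapping members and -0.116 to -0.054 with 1 library left out. The small subunit median was -0.274 to -0.087 with 1 library left out. The share of members below 0 was 56.3% to 66.7% (large) and 51.7% to 72.4% (small) with 1 library left out, and 77.8% for the small subunit without overlapping members. The difference in the ratio of large to small (diosmin minus IVS) was 0.038 without the 3 members of the largest CPM differences, an alternative chosen after seeing the data, and 0.083 to 0.125 with 1 library left out. With 1 mismatch the motif shares were 59.4% (NRF1), 55.1% (ETS) and 39.1% (YY1) of members, and 49.9%, 39.8% and 27.2% of tested protein-coding genes. The median over all genes moved between -0.02 and 0.03 over the settings.

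The labels do not say whether the replicate numbers pair the samples. The deviations of same-numbered libraries correlated at 0.011 over genes. With 2 libraries per group this value cannot tell whether the samples were paired. With the replicate block, 44 genes were called higher and 49 lower, and 0 members (adjusted p = 0.102 for Mrpl16 and 0.125 for Mrps28 in edgeR). With the block and the length and GC offsets, 1 member was called lower and the large subunit median was -0.035. Among the other lists, the block alone left 0 nuclear oxidative phosphorylation genes, 0 cytosolic ribosomal proteins and 1 endothelial marker called lower.

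Standard errors of the members' log2 fold changes ran from 0.194 to 0.404, and the best counted members were at the lower end, so the spread between libraries (coefficient of variation 0.235) limits them too. For 13 members a change of 1 on the log2 scale lay inside the 95% interval.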
